A study of Mus musculus with 12 samples.

Results

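C-type lectin receptors are membrane proteins with which macrophages bind sugars and glycolipids on microbes, dying cells and the extracellular matrix. The RNA of 10 of them was measured here in mouse bone marrow-derived macrophages (BMDM) held in a soft hydrogel, a soft hydrogel with interleukin-4 (IL-4) or a stiff hydrogel. The genes were Mrc1, Mgl2, Clec10a, Clec7a, Clec4n, Clec4d, Clec4e, Clec4a1, Clec4a2 and Clec4a3, and they were taken by symbol from a table of 14098 genes. All 10 were present, and all 10 were among the 11194 genes tested.

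The 12 libraries formed 6 groups of 2. BMDM came from Camkk2+/+ mice (WT) or Camkk2-/- mice (KO), which lack the calcium/calmodulin-dependent kinase kinase Camkk2. All mice were C57Bl/6 of both sexes and 8 to 10 weeks old, and the labels do not say which mice gave which library. In every group the cells were embedded in a gel of collagen and hyaluronic acid and analysed as bulk RNA. Stiff gels were crosslinked with UV light and a photoinitiator 24 h after embedding, and the cells then stayed in them for 48 h. By the study's methods the stiff gel also held more collagen than the soft gel. Stiffness, collagen content, UV light and photoinitiator thus cannot be told apart in these libraries. The study reports controls outside these libraries. More collagen without crosslinking did not significantly raise stiffness or change the cell phenotype, and UV exposure did not affect viability or phenotype. The labels give IL-4 with the soft gel only.

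Each receptor has a carbohydrate recognition fold, and the tail or the partner chain of the receptor sets what follows binding. Endocytic receptors such as the mannose receptor carry their ligands into the cell. Dectin-1, dectin-2 and Mincle signal through the kinase Syk and the adaptor Card9 to cytokine genes, while the inhibitory receptor DCIR carries a motif that recruits phosphatases. In macrophages Mrc1, Mgl2 and Clec10a are known as genes of the alternative, IL-4-driven state, in which the transcription factor STAT6 acts.

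The genes lie on 3 chromosomes of the mouse genome (GENCODE vM21, GRCm38/mm10). Mrc1 lies on chromosome 2 (chr2:14229392-14332057, plus strand). Mgl2 (chr11:70130329-70137550) and Clec10a (chr11:70156197-70170834) are neighbours on chromosome 11, both on the plus strand, with 18.6 kb between them. The 6 Clec4 genes lie on chromosome 6 within 368 kb, from Clec4a1 (chr6:122921848-122934619) through Clec4a3 (chr6:122952515-122969875), Clec4a2 (chr6:123106428-123143999), Clec4n (chr6:123229843-123247021) and Clec4d (chr6:123262111-123275265) to Clec4e (chr6:123281789-123289870). Clec4e is on the minus strand and the other 5 are on the plus strand. Clec7a (chr6:129461591-129472779, minus strand) lies 6172 kb beyond Clec4e, and this annotation lists it as a polymorphic pseudogene.

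The promoters of 4 genes are shown because the RNA of these genes moved apart with IL-4: Mrc1 and Clec7a were higher, Clec4d and Clec4e lower. The sequences are from RefSeq (GRCm38.p6), run 5′ to 3′ on the strand of the gene, and end at or before the first annotated transcript start. Capitals mark matches, on either strand, to the PU.1 core GAGGAA or to the STAT6 motif TTCNNNNGAA, which do not overlap here. The windows are chr2:14229164-14229391 for Mrc1, chr6:129472786-129473029 for Clec7a, chr6:123261857-123262106 for Clec4d and chr6:123289872-123290121 for Clec4e.
Mrc1: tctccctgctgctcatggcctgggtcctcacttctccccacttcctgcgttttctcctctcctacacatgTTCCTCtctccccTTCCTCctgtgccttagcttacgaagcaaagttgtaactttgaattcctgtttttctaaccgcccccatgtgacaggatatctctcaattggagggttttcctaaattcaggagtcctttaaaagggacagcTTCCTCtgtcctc
Clec7a: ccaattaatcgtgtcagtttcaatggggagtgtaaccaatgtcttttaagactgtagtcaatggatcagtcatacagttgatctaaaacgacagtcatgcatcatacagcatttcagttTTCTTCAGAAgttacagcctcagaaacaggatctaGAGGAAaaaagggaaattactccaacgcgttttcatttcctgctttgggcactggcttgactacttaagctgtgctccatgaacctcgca
Clec4d: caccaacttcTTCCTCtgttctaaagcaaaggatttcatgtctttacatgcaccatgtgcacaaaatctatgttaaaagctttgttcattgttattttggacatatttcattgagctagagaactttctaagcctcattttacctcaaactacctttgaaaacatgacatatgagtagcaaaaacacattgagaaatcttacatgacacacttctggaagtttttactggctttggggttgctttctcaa
Clec4e: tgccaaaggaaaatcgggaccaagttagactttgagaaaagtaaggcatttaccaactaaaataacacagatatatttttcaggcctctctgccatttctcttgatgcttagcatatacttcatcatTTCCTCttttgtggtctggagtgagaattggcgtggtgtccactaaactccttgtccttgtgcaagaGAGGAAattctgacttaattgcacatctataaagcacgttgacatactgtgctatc
Promoters of 8 of the 10 genes were found in the RefSeq table, with Clec10a and Clec4n without an entry. The STAT6 motif was in 2 of the 8, those of Clec7a (TTCTTCAGAA, 131 bases before the start) and Clec4a1 (TTCAGGGGAA, 244 bases before the start), against 5.85% of all 32851 promoters of the table. The PU.1 core was in 7 of the 8, against 23.3% of all promoters. These counts are over the whole 250 bases before the RefSeq starts, part of which lies within an annotated transcript for some genes. Upstream of the first annotated start the PU.1 core was in 5 (the 4 shown and Clec4a1), where 18 bases were left for Mgl2 and 0 for Clec4a2. Mrc1 held 3 copies and Clec4e 2. These are matches of letters in a short window and say nothing of binding.

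Levels are given as TPM, a unit that corrects for gene length and sets all libraries to one common sum. It carries no depth, and the counting error behind a value is unknown. WT soft 2, KO soft 1 and KO stiff 1 went against their labels in the level of Camkk2 itself. Camkk2 was 44.2 and 11.7 TPM in WT soft, 30.5 and 29.8 in WT soft+IL-4, and 23.3 and 23.7 in WT stiff. It was 46.6 and 11.5 in KO soft, 11.5 and 8.54 in KO soft+IL-4, and 37.7 and 10.0 in KO stiff. WT stiff 2 was nearest over all tested genes to WT soft+IL-4 2, with a root mean square log2 difference of 0.188, the smallest of any pair of libraries, while its own replicate lay 0.691 away. WT stiff 1 was at least 0.688 from every other library. The libraries were kept under their labels, and receptor calls that were lost without the 3 libraries of discordant Camkk2 are given beside the results.

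In the soft gel all 10 receptors were at 13.2 TPM or more, and both genotypes had the same 2 genes at the top. Clec4d, the macrophage C-type lectin that pairs with Mincle, was the highest, at 601 and 677 TPM in WT soft and 590.1 and 709 in KO soft. Clec7a, which encodes the beta-glucan receptor dectin-1, followed at 309 to 353 TPM over the 4 soft libraries, and these ranges did not overlap. Mgl2, which encodes a galactose-type lectin that binds N-acetylgalactosamine, was the lowest, at 13.2 to 19.2 TPM. Its nearest neighbour in this order was Clec10a, the related galactose-type lectin, at 41.7 to 54.4 TPM, and Clec10a overlapped with Mrc1, at 52.7 to 88.9 TPM.

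With IL-4 the order of levels changed. Of the 10 receptors, 2 rose with IL-4 (Mgl2 and Mrc1) and 3 fell (Clec4n, Clec4d and Clec4e), where a call asked for a Benjamini-Hochberg adjusted p under 0.05 in limma and a change of at least 1 on the log2(TPM + 1) scale, over both genotypes. Of all genes tested, 4.35% were called, 1.87% as higher and 2.48% as lower. Without the fold threshold, 5 of the 10 were higher and 4 lower, against 22.9% of all genes in either direction. The median log2 fold change was 0.51 over the 10 receptors and −0.05 over all genes tested. In each of the 10 the 4 libraries with IL-4 lay wholly above (6 genes) or wholly below (4 genes) the 4 soft libraries, which held for 36.9% of all genes, and the exact permutation test gave p = 0.0286 for each, the smallest that 4 against 4 libraries allow. As these are bulk samples, fewer cells of a type and less RNA per cell cannot be told apart.

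**Figure D1:**
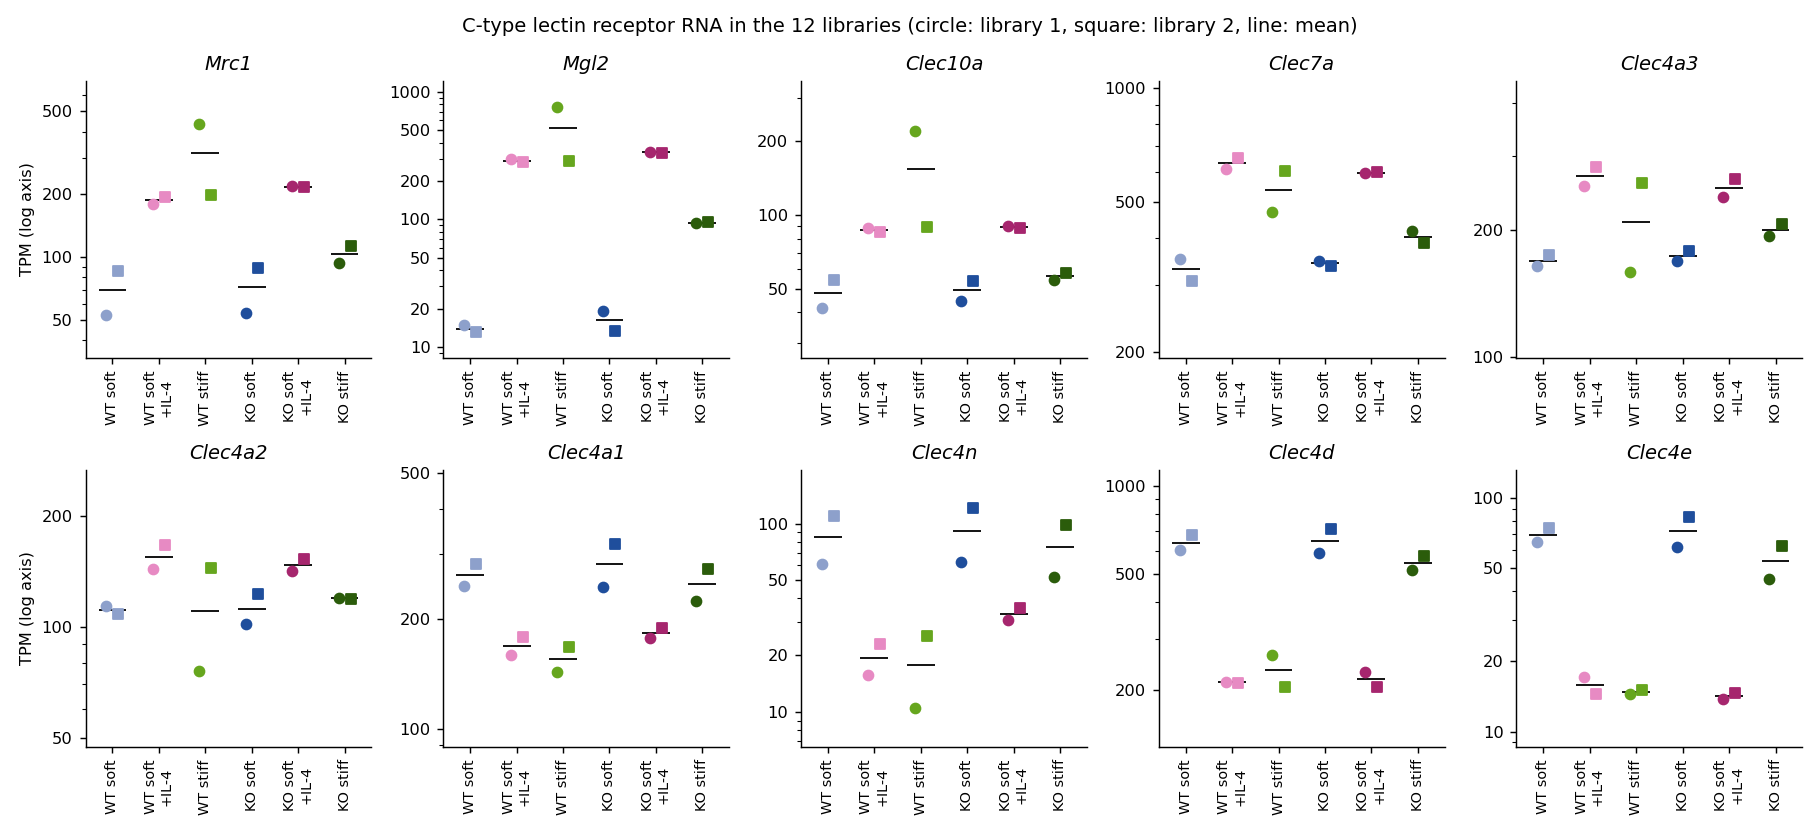
RNA levels of the 10 receptors in the 12 libraries, in TPM on a log axis, with circles for library 1, squares for library 2 and a line for the mean of the 2 libraries of each group (6 groups along each horizontal axis). Mgl2 ran from 13.2 to 19.2 TPM in the 4 soft libraries and from 282 to 337 TPM with IL-4, and Clec4e was at most 17.2 TPM in the IL-4 libraries and at least 62.0 TPM in the soft libraries.

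Mgl2 had the largest change of the 10. It was at 14.8 and 13.2 TPM in WT soft against 295 and 282 in WT soft+IL-4. In KO soft it was at 19.2 and 13.4 TPM against 337 and 334 in KO soft+IL-4. All IL-4 libraries were far above all soft libraries, and replicates with IL-4 were close to each other. The mean was 20.6-fold higher with IL-4 in WT and also 20.6-fold in KO. The log2 fold change over both genotypes was 4.29 (SE 0.249, limma, Benjamini-Hochberg adjusted p = 5.45e-06).

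Mrc1 encodes the mannose receptor, an endocytic receptor for mannose-bearing glycoproteins and collagen. It was at 52.7 and 86.3 TPM in WT soft and 179.5 and 195 in WT soft+IL-4. In KO soft it was at 54.3 and 88.9 and 218 and 217 in KO soft+IL-4. The soft replicates differed by 1.64-fold in both genotypes, and the IL-4 replicates by less than 1.1-fold. The log2 fold change was 1.54 (SE 0.256, limma, Benjamini-Hochberg adjusted p = 0.00238), a 2.87-fold higher mean. Within WT alone the value was 1.46 (adjusted p = 0.0325 in limma) and it lost its call without WT soft 1 (1.11, adjusted p = 0.199) and without WT soft 2 (1.81, 0.0578), WT soft+IL-4 1 (1.52, 0.142) or WT soft+IL-4 2 (0.144). It was also lost when either KO soft+IL-4 or either KO stiff library left the model (adjusted p of 0.0509 to 0.0575). Within KO alone it was 1.63 (adjusted p = 0.0207) and was lost without KO soft 1 (1.28, 0.147), KO soft+IL-4 1 (0.121) or KO soft+IL-4 2 (0.11). With the 3 libraries of discordant Camkk2 left out, Mrc1 was called neither in WT (1.81, adjusted p = 0.135 in limma) nor in KO (1.28, 0.244), and over both genotypes it was (1.54, 0.0397).

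Clec10a and Clec7a rose by less than the fold threshold. Clec10a, next to Mgl2 in the genome, was at 41.7 and 54.4 TPM in WT soft and 88.3 and 85.1 in WT soft+IL-4. In KO the values were 44.4 and 54.0 against 90.6 and 88.6, a rise of 0.85 on the log2 scale over both genotypes (adjusted p = 0.0268 in limma). Mgl2 and Clec10a share sequence. Of the 31-base words of Mgl2 transcripts 19.3% occur in Clec10a, so reads from the abundant Mgl2 RNA could in part have been given to Clec10a and the split between them is uncertain. Clec7a went from 353 and 309 TPM to 611 and 651 in WT and from 348 and 339 to 595 and 599 in KO, a rise of 0.86 on the log2 scale (SE 0.0856, adjusted p = 0.00013 in limma). With IL-4 it became the most abundant of the 10.

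Clec4n, Clec4d and Clec4e encode dectin-2, the macrophage C-type lectin MCL and Mincle, receptors for fungal mannans and mycobacterial glycolipids that signal through the Fc receptor gamma chain. Clec4e fell most. It was at 65.0 and 74.3 TPM in WT soft, 17.2 and 14.5 in WT soft+IL-4, 62.0 and 82.8 in KO soft and 13.8 and 14.6 in KO soft+IL-4. The groups were far apart, and the mean was 4.73-fold lower with IL-4 (log2 fold change −2.16, SE 0.127, limma, Benjamini-Hochberg adjusted p = 5.63e-06).

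Clec4d was at 601 and 677 TPM in WT soft, 213 and 212 in WT soft+IL-4, 590.1 and 709 in KO soft and 230.1 and 205 in KO soft+IL-4. It went from the most abundant of the 10 to a level below Clec7a, Clec4a3 and, in all 4 IL-4 libraries, Mgl2. In limma this was a log2 change of −1.57 with an SE of 0.0988 (adjusted p = 8.69e-06). Clec4n was more variable, at 60.6 and 109.9 TPM in WT soft, 15.7 and 22.9 in WT soft+IL-4, 62.2 and 121 in KO soft and 30.8 and 35.5 in KO soft+IL-4. In limma the log2 change was −1.71 with an SE of 0.338 (adjusted p = 0.00601). Within WT alone it was −2.05 and lost its call without WT soft 2 (−1.62, adjusted p = 0.171), WT soft+IL-4 1 (−1.79, 0.176) or WT soft+IL-4 2 (−2.31, 0.0728), and without the discordant libraries (−1.62, 0.214). In all 6 groups Clec4n was higher in the library numbered 2, by 1.15 to 2.40-fold. Libraries numbered 2 also had fewer genes listed at 0, 5.90% to 7.54% of the table against 10.7% to 13.4%. In WT soft, KO soft and KO stiff the library numbered 2 was also the one of low Camkk2. The part of either in the Clec4n values was not tested.

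The 3 DCIR-related genes changed least. Clec4a2 encodes the inhibitory receptor DCIR, and Clec4a1 and Clec4a3 its relatives. Clec4a1 had lower levels with IL-4, 159 to 189 TPM over 4 libraries against 244 to 319.95 in the soft gel (log2 fold change −0.63, adjusted p = 0.00316 in limma). Clec4a3 had higher levels, 239 to 282 TPM against 164 to 179 (0.60, adjusted p = 0.0101 in limma). Clec4a2 did not pass, at 142 to 167 TPM against 102 to 123 (0.43, adjusted p = 0.101 in limma), and 10.3% of its 31-base words occur in other genes, mostly Clec4a4 and Clec4b1.

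The IL-4 response of the receptors was measured in both genotypes. In WT 2 rose and 3 fell (3.76% of all genes called), and in KO 2 rose and 2 fell (3.65% called). Clec4n was the gene called only in WT, at −2.05 in WT (adjusted p = 0.025) and −1.36 in KO (adjusted p = 0.111), but the difference between the genotypes was 0.68 on the log2 scale (95% confidence interval −0.83 to 2.20, limma, Benjamini-Hochberg adjusted p = 1). For Mgl2 the difference was 0.03 (−1.09 to 1.15) and for Clec4e −0.18 (−0.75 to 0.39). In limma 0 of the 10 were called for a genotype difference in the IL-4 response, as were 0 of all genes, and 0 of the 10 had an unadjusted p under 0.05 (1.47% of all genes). KO soft and WT soft differed in 0 of the 10 by limma and in 0 of all genes, with 0 of the 10 at an unadjusted p under 0.05 (1.16% of all genes). Each soft group held 1 library of high and 1 of low Camkk2 (44.2 and 11.7 TPM in WT, 46.6 and 11.5 in KO). Neither this comparison nor the soft side of the IL-4 difference thus sets high against low Camkk2. The differences between the soft groups were 0.04 for Mrc1 and 0.09 for Clec4n. Without the discordant libraries, which leaves WT soft 1 against KO soft 2, they were 0.74 and 0.98. KO soft+IL-4 and WT soft+IL-4 also differed in 0 of the 10 and 0 of all genes in limma, with 0 of the 10 at an unadjusted p under 0.05 (2.08% of all genes).

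**Figure D2:**
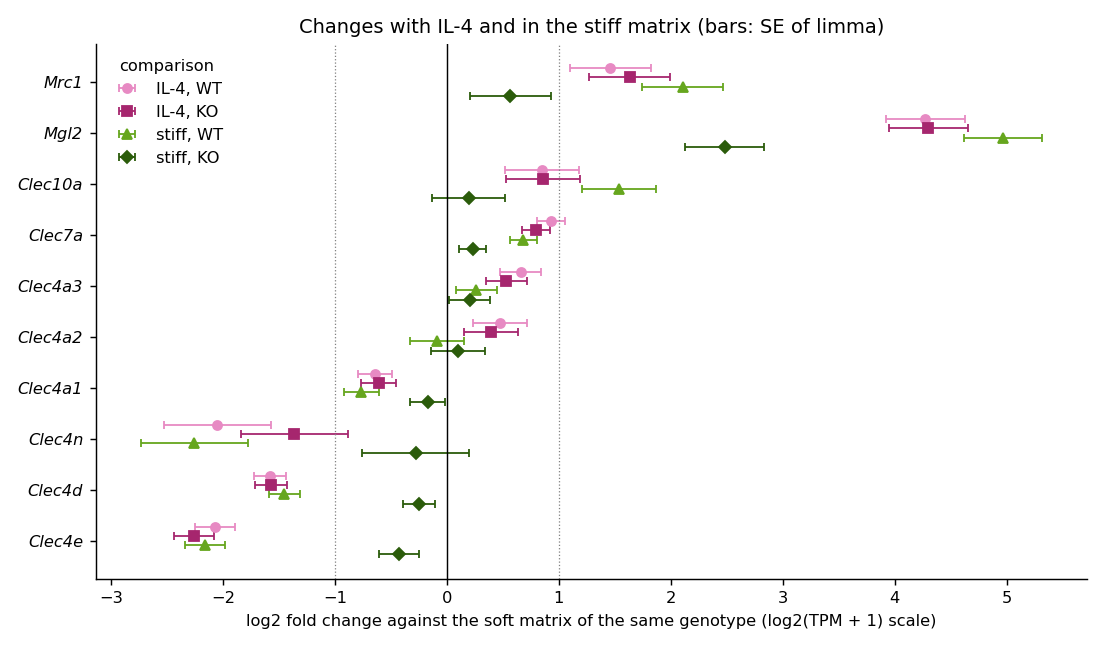
Log2 fold changes of the 10 receptors on the log2(TPM + 1) scale (horizontal axis) with IL-4 or in the stiff gel, each against the soft gel of the same genotype, with bars for the SE of limma and dotted lines at −1 and 1. Mgl2 was at 4.27 and 4.30 with IL-4 in WT and KO, at 4.97 in WT stiff and at 2.48 in KO stiff, and Clec4e at −2.07, −2.26, −2.16 and −0.43 in the same order.

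In WT BMDM the stiff gel changed 6 of the 10 receptors. Of these, 3 were higher (Mgl2, Mrc1 and Clec10a) and 3 lower (Clec4n, Clec4e and Clec4d) in WT stiff than in WT soft, where 3.97% of all genes were called. This comparison shares the WT soft libraries with that of IL-4 in WT, so the 2 sets of values are not independent. The 2 WT stiff libraries differed much from each other in the raised genes. With the 3 libraries that went against their Camkk2 labels left out, the calls of Mrc1, Clec10a and Clec4n were lost (values below). With the 4 compared libraries alone in the model 0 of the 10 were called, as were 0 of all genes.

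Mgl2 was at 758 TPM in WT stiff 1 and 287 in WT stiff 2, against 14.8 and 13.2 in WT soft. WT stiff 1 was thus 54.2-fold and WT stiff 2 20.5-fold above the soft mean, and WT stiff 2 lay within the WT soft+IL-4 values of 295 and 282. The log2 fold change was 4.97 (SE 0.352, limma, Benjamini-Hochberg adjusted p = 6.42e-05). Mrc1 was at 436 and 198 TPM against 52.7 and 86.3 (2.11, SE 0.362, adjusted p = 0.00639 in limma). Clec10a was at 221 and 89.1 TPM against 41.7 and 54.4 (1.54, SE 0.328, adjusted p = 0.017 in limma), but without WT stiff 1 its value was 0.89 and below the fold threshold. The Clec10a call was also lost without WT soft 1 (adjusted p = 0.123) or WT soft 2 (0.0596), and that of Mrc1 without WT soft 1 (0.0582).

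Of the lowered genes Clec4e and Clec4d were close between the WT stiff libraries, while Clec4n differed by 2.40-fold. Clec4e was at 14.5 and 15.0 TPM in WT stiff against 65.0 and 74.3 in WT soft (log2 fold change −2.16, SE 0.179, limma, Benjamini-Hochberg adjusted p = 0.000121). Clec4d was at 263 and 206 TPM against 601 and 677 (−1.45, SE 0.14, adjusted p = 0.000279 in limma). Clec4n was at 10.5 and 25.2 TPM against 60.6 and 109.9 (−2.25, SE 0.477, adjusted p = 0.0165 in limma), and its call was lost without WT stiff 1 (−1.66, adjusted p = 0.0516) or WT soft 2 (−1.83, 0.127). Without the discordant libraries the calls of Mrc1 (2.46, adjusted p = 0.0652 in limma), Clec10a (1.73, 0.181) and Clec4n (−1.83, 0.167) were lost. Of the other 4, Clec7a was higher (0.68, adjusted p = 0.00748) and Clec4a1 lower (−0.76, adjusted p = 0.0139) below the fold threshold, and Clec4a3 (0.26) and Clec4a2 (−0.09) did not pass in limma.

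WT stiff and WT soft+IL-4 differed in 0 of the 10 receptors and in 0 of all genes by limma, with 1 of the 10 (Clec4a2) at an unadjusted p under 0.05 (4.98% of all genes). The intervals were wide, at 0.69 (95% confidence interval −0.10 to 1.48) for Mgl2 and −0.09 (−0.49 to 0.32) for Clec4e. This count stayed the same without WT stiff 1 but not without WT stiff 2, which leaves WT stiff 1 alone in its group. WT stiff 1 was at least 0.688 from every other library over all tested genes, so its distance was not confined to the receptors. The values without WT stiff 2 were 1.39 for Mgl2, 1.34 for Clec10a and 1.22 for Mrc1, higher in the stiff gel, and −1.02 for Clec4a2, lower. In WT stiff 1 Mgl2 was 2.63-fold and Mrc1 2.33-fold above the WT soft+IL-4 mean, whereas in WT stiff 2 the same genes were 1.01-fold below and 1.06-fold above it.

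In KO BMDM the stiff gel called 0 of the 10 in limma (0.0447% of all genes were called), with 2 of the 10 (Mgl2 and Clec4e) at an unadjusted p under 0.05 (2.64% of all genes). Mgl2 was at 94.1 and 94.8 TPM in KO stiff against 19.2 and 13.4 in KO soft, so the groups did not overlap and the mean was 5.79-fold higher. Its log2 fold change of 2.48 (SE 0.352) did not pass (limma, Benjamini-Hochberg adjusted p = 0.0559). It passed with either WT stiff library left out (adjusted p = 0.000113 without WT stiff 1 and 0.000111 without WT stiff 2) and with median-of-ratios scaling (0.0447). Without the discordant libraries it was 2.73 and did not pass (adjusted p = 1 in limma).

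Of the other receptors none passed in KO stiff. Clec4e was at 45.1 and 62.4 TPM in KO stiff against 62.0 and 82.8 in KO soft (log2 fold change −0.43, 95% confidence interval −0.83 to −0.02, adjusted p = 1 in limma). Clec4d was at 515 and 576 TPM against 590.1 and 709 (−0.25). Mrc1 was at 94.2 and 114 TPM against 54.3 and 88.9 (0.57, 95% confidence interval −0.25 to 1.38), and Clec10a at 54.5 and 58.0 against 44.4 and 54.0 (0.20). Clec4n overlapped, at 52.0 and 97.8 TPM against 62.2 and 121.

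Within the stiff gel the genotypes differed in 5 of the 10 receptors. Clec4n, Clec4d and Clec4e were higher in KO stiff than in WT stiff and Mgl2 and Mrc1 lower, where 1.98% of all genes were called. Clec4e was 3.63-fold higher in KO stiff (log2 fold change 1.78, SE 0.179, limma, Benjamini-Hochberg adjusted p = 0.000959) and Clec4d 2.33-fold higher (1.22, adjusted p = 0.00151). Clec4n (2.06, adjusted p = 0.0408) and Mrc1 (−1.50, adjusted p = 0.0482) were nearer the threshold in limma. The Clec4n call was lost without any 1 of 9 of the 12 libraries and the Mrc1 call without any 1 of 11, with values down to 1.47 and −0.93 without WT stiff 1. Mgl2 was 5.53-fold lower in KO stiff (−2.29, adjusted p = 0.00692 in limma) and lost its call without KO stiff 1 (adjusted p = 0.0566) or KO stiff 2 (0.06). With KO stiff 1 and the 2 other libraries of discordant Camkk2 left out, 1 of the 10 was called, Clec4e (2.01, adjusted p = 0.0202 in limma). The values of the other 4 were then 2.51 for Clec4n (adjusted p = 0.125), 1.30 for Clec4d (0.0677), −2.29 for Mgl2 (0.183) and −1.36 for Mrc1 (0.345), and 0.179% of all genes were called.

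A direct test of whether the stiff response differed between genotypes called 2 of the 10, Clec4e and Clec4d, and 0.67% of all genes. Clec4e fell by 2.16 on the log2 scale in WT and had a value of −0.43 in KO, a difference of 1.73 (SE 0.253, limma, Benjamini-Hochberg adjusted p = 0.0172). For Clec4d the values were −1.45 and −0.25, a difference of 1.20 (SE 0.198, adjusted p = 0.0259 in limma). The Clec4d call was lost without a variance trend (adjusted p = 0.0609 in limma). It was also lost without any single library of WT soft, WT soft+IL-4, KO soft+IL-4 or KO stiff, and without KO soft 1 (values of 1.07 to 1.29). Mgl2 had a difference of −2.48 (SE 0.498) that did not pass (adjusted p = 0.0585 in limma), and without WT stiff 1 it was −1.78 and passed (adjusted p = 0.00368). Without WT stiff 2 the test called 6 of the 10, with 7.99% of all genes called. Without WT soft 1, WT soft 2, KO soft 1 or KO stiff 2 it called 0, with 0.0715%, 0.107%, 0.0357% and 0.0447% of all genes called in that order. Without the 3 libraries of discordant Camkk2, 0 of the 10 were called, with Clec4e at 1.66 (adjusted p = 0.302) and Clec4d at 1.07 (adjusted p = 0.867). The 4 stiff libraries of both genotypes did not overlap with the soft libraries for 5 of the 10 (Mrc1, Mgl2, Clec10a and Clec7a above, Clec4d below), against 8.84% of all genes (exact permutation test, p = 0.0286 each).

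Summed over the 10 genes, receptor RNA changed less than its make-up did. The sum was 1695 to 2029 TPM in the soft libraries and 1977 to 2100.4 TPM with IL-4, and these ranges overlapped. Mrc1 and Mgl2 together made up 3.94% to 5.27% of it in the soft gel and 22.8% to 26.8% with IL-4. Clec4n, Clec4d and Clec4e together made up 42.1% to 45.6% in the soft gel and 11.9% to 13.2% with IL-4. Both sets were picked by their IL-4 calls in these same libraries. The direction of their shares with IL-4 follows from that choice and is no separate result. Clec7a went from a share of 16.4% to 20.6% to one of 28.5% to 31.2%. In the stiff gel the sum was highest in WT stiff 1, at 2551 TPM, where Mrc1 and Mgl2 made up 46.8% of it. In WT stiff 2 it was 1993 TPM with a share of 24.3%, within the range of the IL-4 libraries. In KO stiff it was 1809.7 and 1992 TPM, with shares of 10.4% and 10.5%.

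**Figure D3:**
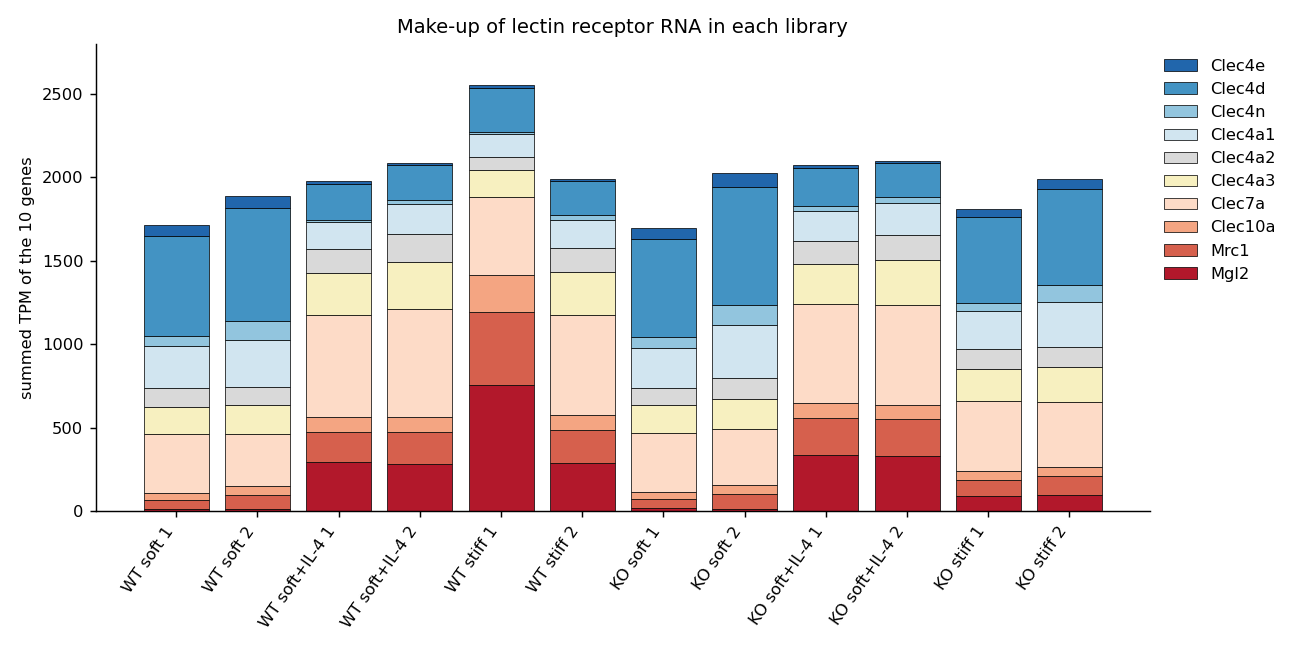
Summed TPM of the 10 receptors in each library (vertical axis, starting at 0), stacked by gene, with Mgl2 at the bottom and Clec4e at the top. The reds at the bottom (Mgl2 and Mrc1) widened from at most 5.27% of the bar in the soft gel to at least 22.8% with IL-4, and the blues at the top (Clec4n, Clec4d and Clec4e) narrowed from at least 42.1% to at most 13.2%. Both sets were picked by their IL-4 calls in these same libraries.

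The genes raised and lowered past the fold threshold lie apart in the genome. Clec4n, Clec4d and Clec4e, the 3 lowered genes, are the last 3 of the chromosome 6 group and lie within 60.0 kb. Clec4a3 and Clec4a2, on the other side of the group, had values of 0.60 (adjusted p = 0.0101 in limma) and 0.43. Clec4a1 at its edge, which starts 30.7 kb from Clec4a3, had −0.63 (adjusted p = 0.00316), the other direction. Between the receptors of this group lie Clec4a4 (0.64, adjusted p = 0.0948 in limma), Clec4b1 (0.79, adjusted p = 0.0789) and Clec4b2, which stayed under the filter at 0.353 TPM or less. C3ar1, the receptor of the complement fragment C3a and which starts at −65.7 kb from Clec4a1, was at −0.81 (adjusted p = 0.00235). The 2 genes raised past the fold threshold lie on other chromosomes, while Clec7a (0.86, below the threshold) is on chromosome 6.

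**Figure D4:**
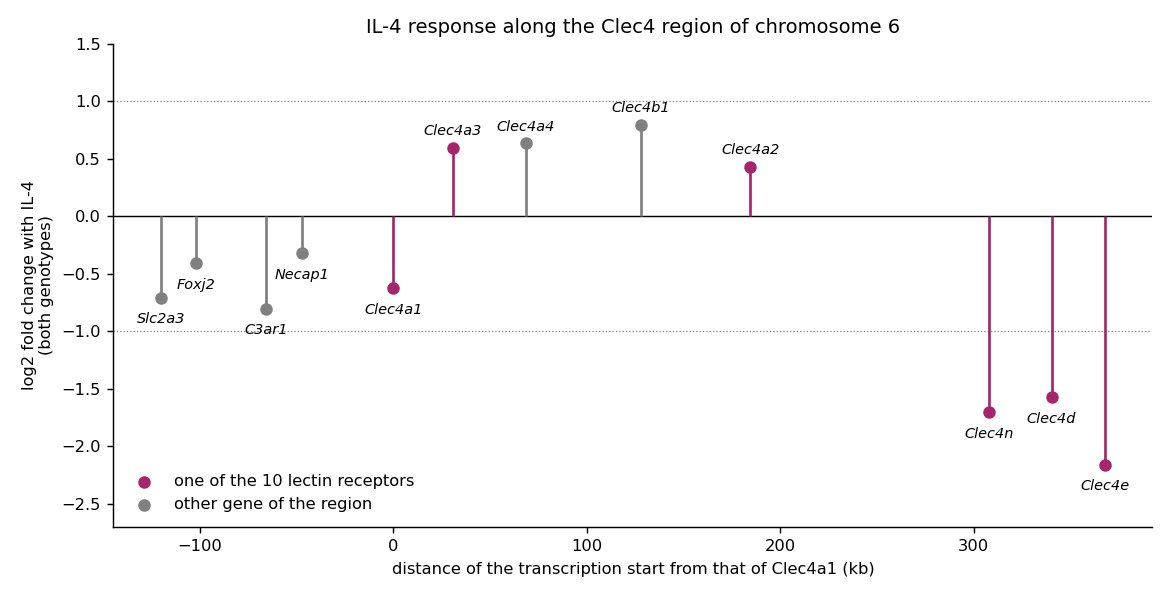
Log2 fold change with IL-4 over both genotypes (vertical axis) against the distance of each transcription start from that of Clec4a1, in kb (horizontal axis), for tested genes of the Clec4 region on chromosome 6, with receptors of the list in colour, other genes in grey and dotted lines at −1 and 1. The 3 genes below −1 (Clec4n, Clec4d and Clec4e) are the last 3 of the region, and the 4 genes before them lie between 0.43 and 0.79.

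Across the 12 libraries some of the receptors had similar patterns. On log2(TPM + 1), Clec4d and Clec4e had a Pearson r of 0.99, Mrc1 and Clec10a of 0.96, Mgl2 and Clec4e of −0.93, and Clec4a2 and Clec4a3 of 0.89. These are descriptions over libraries that share groups and scaling, and they carry no test. Among all tested genes, the gene most like Mgl2 was Retnla (r = 0.997), followed by Pdcd1lg2, which encodes a ligand of the receptor PD-1. The gene most like Mrc1 was Gatm (0.995), an enzyme of creatine synthesis, that most like Clec4d was Il10ra (0.998), a chain of the interleukin-10 receptor, and that most like Clec7a was Atp6v0d2 (0.993), a subunit of the vacuolar proton pump. Clec4e was most like C5ar1 (0.997), the receptor of the complement fragment C5a, and Lyz2 (0.995), a lysozyme.

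Of 47 other genes of the C-type lectin fold, 36 were in the table and 19 were tested. With IL-4 1 of the 19 rose and 3 fell, where 4.35% of all genes were called, with a median log2 fold change of −0.25. Clec12a, an inhibitory receptor for uric acid crystals, fell by 1.63 on the log2 scale, Cd302 by 1.56 and Cd93 by 1.20 (adjusted p = 6.68e-05, 1.15e-05 and 8.74e-06 in limma). Olr1, the oxidised LDL receptor LOX-1, rose by 1.22 from low levels (means of 0.428 and 0.496 TPM in the soft groups). In WT stiff, against the same WT soft libraries, Olr1 (1.14) was higher and Clec12a (−1.99), Cd302 (−1.70) and Cd93 (−1.04) were lower. Of these, Cd93 (−0.99) fell below the fold threshold without WT stiff 2 and Olr1 (0.91, adjusted p = 0.102) did not pass without WT stiff 1, and without the discordant libraries Cd302 alone of the 4 was called (−1.58, adjusted p = 0.0199 in limma). Clec12a (1.78) and Cd302 (1.43) were higher in KO stiff than in WT stiff, and without the discordant libraries these were 1.77 (adjusted p = 0.104) and 1.49 (0.0633). Clec12a had means of 351 TPM in WT soft, 90.8 in WT stiff and 302 in KO stiff.

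Of 44 genes for signalling and output below these receptors, 41 were tested. With IL-4 2 rose and 3 fell (median −0.27), where 4.35% of all genes were called. Syk, Card9 and the adaptors that couple the receptors to Syk were not called. Syk was at −0.33 on the log2 scale (adjusted p = 0.00258), Card9 at −0.25 (adjusted p = 0.0172) and Fcer1g, the Fc receptor gamma chain, at −0.43 (adjusted p = 0.0259 in limma), all below the fold threshold, and the adaptor Tyrobp did not pass (−0.27, adjusted p = 0.219). Among the output genes, Nlrp3, the sensor of an inflammasome, fell by 1.95 on the log2 scale and Il1b, which encodes interleukin-1 beta, by 1.63. Il10 fell by 1.13 from low levels of 3.21 and 2.64 TPM in the soft groups. Its libraries overlapped, at 1.70 to 3.59 TPM in the soft gel and 0 to 2.55 with IL-4. Tnf was not called, though its libraries did not overlap, at 24.6 to 32.4 TPM in the soft gel and 11.9 to 14.4 with IL-4. Prkcd, a kinase between Syk and Card9, rose by 1.04 and the transcription factor Egr2 by 1.41.

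In the stiff gel 3.97% of all genes were called in WT and 0.0447% in KO. Of the 41, 7 were called lower in WT and 0 in KO. Among them were Il1b (−2.61), Tnf (−2.50), Egr3 (−1.89), Nlrp3 (−1.45), Ptpn6 (−1.21) and Nfatc2 (−1.17). Ptpn6 is the phosphatase that inhibitory receptors recruit. Il1b (2.28), Nfatc2 (1.09) and Ptpn6 (1.06) were higher in KO stiff than in WT stiff. Il1b had means of 15.9 TPM in WT soft, 1.91 in WT stiff and 12.6 in KO stiff. The WT stiff libraries differed in most of these genes. Il1b was at 0.961 and 2.87 TPM, Tnf at 1.01 and 10.7, Nlrp3 at 12.2 and 5.05 and Ptpn6 at 108 and 177, and Egr3 was listed at 0 in WT stiff 1 and was at 2.13 TPM in WT stiff 2. Without WT stiff 1 the calls of Egr3 (−1.06, adjusted p = 0.0623 in limma) and Ptpn6 (−0.86, below the fold threshold) were lost, and Tnf was at −1.23 (adjusted p = 0.000398). Without WT stiff 2 that of Nlrp3 (−0.89) was lost. Without the discordant libraries none of the 6 named genes was called (adjusted p of 0.0583 for Il1b to 0.273 for Tnf and Nlrp3), nor were the 3 genotype differences in the stiff gel (adjusted p of 0.0892 to 0.252). Ptpn6 was also below the fold threshold in the genotype comparison without WT stiff 1 (0.71).

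Markers of macrophages were present at high levels in every library, with all 11 tested, and their summed level moved with IL-4. It was 57706 to 66343 TPM in the soft libraries, 30145 to 30886 with IL-4, 30508 to 30539 in WT stiff and 52226.5 to 56429 in KO stiff. Most of this sum was Lyz2, at 45849 to 51543 TPM in the soft libraries and 19190 to 21251 with IL-4. Adgre1 (just past the fold threshold), Fcgr1 (−2.42), Lyz2 (−1.25) and Cd14 (−2.31) fell with IL-4 and none of the 11 rose. Of 8 dendritic cell markers, 6 were tested and 3 rose with IL-4 (Batf3, 2.44, Itgax, 2.26, and Ccr7, 1.13), while Flt3 and Xcr1 stayed under the filter. The summed level of the 8 was 146 to 179 TPM in the soft libraries, 766 to 777 with IL-4, 255 and 762 in the WT stiff libraries and 297 to 317 in KO stiff. Most of that sum was Itgax, at 125 to 141 TPM in the soft libraries and 622 to 662 with IL-4. Of 4 monocyte markers Ccr2 and Vcan fell, and the sum went from 88.0 to 108 TPM in the soft libraries to 32.1 to 39.0 with IL-4. Neutrophil markers summed to 38.9 to 95.5 TPM in all libraries with none of 4 tested called, B cell markers to at most 3.38 TPM and mast cell or basophil markers to at most 2.26 TPM. Pax5 was listed at 0 in both libraries of 5 groups, Ms4a1 of 2, Mcpt8 of 2 and Retnlg of 4. The part of any of these in the receptor values was not tested.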

How the data were processed

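RNA of BMDM in 6 groups of 2 libraries was measured by polyA-selected, strand-specific RNA-seq. The authors deposited 1 table of TPM values for 14098 genes. By the submitters' processing notes, Trim Galore 0.6.7 and Salmon 1.4.0 were used with the build mm10, while the study's methods describe STAR and featureCounts, so how these TPM values were made is not settled. TPM holds no counts, and the depth of each library is unknown. Groups were taken from the sample titles, and the columns were matched to them by genotype, gel, IL-4 and replicate number. The titles of both IL-4 libraries of a genotype also name soft 1, and whether both came from 1 soft culture is not given in the sources used here. The 11194 genes that reached 1 TPM in 2 or more libraries were tested. The test was limma 3.58.1 (R 4.3.3) on log2(TPM + 1), in 1 model of all 12 libraries with a mean per group and a variance trend. P-values were two-sided and adjusted by the Benjamini-Hochberg method over all genes tested. Changes of genes with low levels come out too small on this scale. Fold differences of TPM means were computed without a pseudocount. Single genes were also compared with an exact permutation test (70 splits, two-sided). All 10 receptors are named in every comparison where space allows, and other list genes only where called or at the core of the pathway; Clec4a4, Clec4b1, Clec4b2, C3ar1 and the signalling genes that were not called were named after their values were seen. The values of 1 gene of the signalling list are not reported here. The receptors and lists were chosen with earlier results of these data known. Shared 31-base words were counted over GENCODE vM21 transcripts. In a simulation of IL-4 in WT with 11194 genes, 174 of 200 genes (87%) changed by 2 on the log2 scale were called in the right direction, with 2 unchanged genes called. The alternatives were a pseudocount of 0.1, no filter, median-of-ratios scaling, only the compared libraries, the replicate number as a block, no variance trend, other thresholds, leaving out each library, and leaving out the 3 libraries whose Camkk2 went against the label. For the other lectin and signalling genes, leaving out a WT stiff library or these 3 was chosen after seeing the data.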

Additional observations from a re-analysis of the deposited data

Results flagged for a closer look

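The stiff response of Clec4d and Clec4e differed between genotypes by a direct test of the difference, which called 0.67% of all genes. It also called 2 of the 19 other C-type lectin-like genes, 1 of the 41 signalling and output genes and 1 of the 11 macrophage markers. Clec4d differed by 1.20 on the log2 scale (limma, Benjamini-Hochberg adjusted p = 0.0259), as WT stiff was at 263 and 206 TPM and KO stiff at 515 and 576. Clec4e differed by 1.73 (limma, Benjamini-Hochberg adjusted p = 0.0172), with 14.5 and 15.0 TPM in WT stiff and 45.1 and 62.4 in KO stiff. Both rest on libraries of which KO stiff 1 and KO soft 1 went against their Camkk2 label, and neither was called without these and WT soft 2. The Clec4d call was also lost without any single library of WT soft, WT soft+IL-4, KO soft+IL-4 or KO stiff, and without KO soft 1. That of Clec4e was lost without WT soft 1, WT soft 2, KO soft 1 or KO stiff 2.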

How the results depend on the processing

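The 5 receptors called with IL-4 over both genotypes kept their calls and directions with each library left out (5 to 5), without the 3 libraries of discordant Camkk2, and under every other alternative but a log2 fold change of at least 2, which called 2. No receptor reversed a call in any comparison. At a log2 fold change of at least 2 the counts were 3 with IL-4 in WT, 2 with IL-4 in KO, 2 between genotypes in the stiff gel and 0 for the difference of the stiff response. With the discordant libraries left out they were 3 with IL-4 in WT, 3 in WT stiff, 1 between genotypes in the stiff gel and 0 for the difference of the stiff response. With only the compared libraries in the model they were 0 in WT stiff, 0 between genotypes in the stiff gel and 0 for the difference of the stiff response. Fewer libraries estimate the spread under this setting, and 0 of all genes were called in each. These comparisons all hold the WT stiff libraries, which lay 0.691 apart over all tested genes. With IL-4 the same setting called 4.67% of all genes in WT and 4.64% in KO. Without a filter 3 receptors were called between genotypes in the stiff gel (1.28% of all genes). Without a variance trend 3 were called there (1.77% of all genes) and 1 for the difference of the stiff response (0.465%). In KO stiff 1 (Mgl2) was called at an adjusted p under 0.1, with median-of-ratios scaling (0.0804% of all genes) and with the replicate block (0.0625%). With each library left out in turn the counts ran from 3 to 5 with IL-4 in WT, from 3 to 5 with IL-4 in KO, from 4 to 6 in WT stiff, from 0 to 1 in KO stiff, from 0 to 4 for WT stiff against WT soft+IL-4, from 2 to 6 between genotypes in the stiff gel and from 0 to 6 for the difference of the stiff response. Leaving out a library leaves 1 in its group, which is then assumed to vary like the other groups. The share of all genes called also moved with the library left out and without the discordant libraries. These counts thus do not describe the receptors alone. The causes were not tested.

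Deviations of same-numbered libraries correlated at 0.314, 0.307 and 0.283 in the 3 pairs formed by KO stiff, WT soft and KO soft, and at −0.05 to 0.0905 in the other 12 pairs of groups. In these 3 groups the first library had high and the second low Camkk2, so replicate number and Camkk2 level cannot be told apart there. As not every pair was over 0.1, the numbers were not taken to pair the samples. With the replicate number as a block, 4 were called for the difference of the stiff response, Mgl2 and Clec4n in addition, where 0.804% of all genes were called. Clec4n was then also called with IL-4 in KO (adjusted p = 0.00507 in limma, Benjamini-Hochberg), and Mrc1 lost its call between genotypes in the stiff gel (adjusted p = 0.0637). With 2 libraries per group and no depth in TPM, intervals are wide for Mrc1, Clec10a and Clec4n.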
